A study of Mus musculus with 24 samples.

Results

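The genes described here are 42 genes of DNA replication and of the step from G1 into S phase. They were chosen by name, and their expression was taken from the transcripts of each gene in 24 RNA-seq libraries. The deposited tables gave 49172 genes after transcripts were summed, of which 16424 had enough counts to be tested, and all 42 genes were among them. The libraries came from Ocy454 cells, a mouse cell line labelled as osteocytic, the cell type embedded in bone matrix. Cells received vehicle, lysophosphatidic acid (LPA, a lipid that signals through G protein-coupled receptors), 1,25-dihydroxyvitamin D (1,25D, the active vitamin D hormone) or both agents, and RNA was taken at 2 h or 8 h. Each of the 8 groups held 3 libraries. Genotype was the same line in every group, the labels give no doses, and vehicle libraries at the same time served as controls. The study asked how these agents act on the synthesis of FGF23, a hormone that lowers blood phosphate.

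The labels of the single treatments need care. In the names of the deposited tables the letters for LPA and 1,25D are exchanged relative to the sample labels. Expression of the vitamin D receptor gene Vdr and of Cyp24a1, the vitamin D 24-hydroxylase and a classical target of 1,25D, also went against the labels. At 8 h Cyp24a1 was at 0.733, 1.36 and 0.846 CPM (counts scaled to library size) in the libraries labelled LPA and at 0, 0.0304 and 0 CPM in those labelled 1,25D. Vdr was at 247, 260 and 256 CPM in the former and at 70.6, 74.3 and 71.9 CPM in the latter. With both agents at 8 h Cyp24a1 was at 1.07, 0.902 and 0.72 CPM and Vdr at 229, 205 and 236 CPM, near the libraries labelled LPA. Vehicle at 8 h had Cyp24a1 at 0.0296, 0 and 0 CPM and Vdr at 134, 112 and 130 CPM. Single treatments are therefore given as "labelled LPA" and "labelled 1,25D" throughout, and any direction drawn from them belongs to the libraries so labelled. The agent these libraries received may be the one named on the other label. The groups with vehicle and with both agents are not touched by the exchange.

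Before S phase, the origin recognition complex, CDC6 and CDT1 load the ring-shaped MCM helicase onto DNA. Cyclin D and cyclin E with their kinases release E2F transcription factors from the retinoblastoma proteins, and E2F factors then raise transcription of many replication genes. The helicase is activated with CDC45 and GINS, and DNA polymerases copy the strands with the sliding clamp PCNA, the clamp loader RFC and the single-strand binding protein RPA. The inhibitors p21 (Cdkn1a) and p27 (Cdkn1b) act on cyclin-dependent kinases, and p21 also binds PCNA. Osteocytes in bone have left the cell cycle, whereas a growing cell line replicates its DNA.

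Promoter sequences are shown first, because these genes are known as a group for E2F sites near their starts. RefSeq promoter windows on GRCm38.p6 run from 250 bases before to 50 bases after a gene's start. They matched 35 of the 42 genes, with 42 windows, since some genes have several starts. The printed stretches are the 250 bases before the start, 5′ to 3′ on the gene's strand. The first 4 carry E2F motifs in capitals, from the letters TTTCCCGC, TTTGGCGC, TTTGCCGC and TTTCGCGC on either strand, and overlapping matches run together. Mcm6 and Mcm5 encode helicase subunits, Cdk2 the kinase partner of cyclin E, and Pola1 the catalytic subunit of DNA polymerase alpha. The positions are chr1:128359706-128359955 (minus strand) for Mcm6, chr8:75109259-75109508 (plus strand) for Mcm5, chr10:128705052-128705301 (minus strand) for Cdk2 and chrX:93632156-93632405 (minus strand) for Pola1.
Mcm6: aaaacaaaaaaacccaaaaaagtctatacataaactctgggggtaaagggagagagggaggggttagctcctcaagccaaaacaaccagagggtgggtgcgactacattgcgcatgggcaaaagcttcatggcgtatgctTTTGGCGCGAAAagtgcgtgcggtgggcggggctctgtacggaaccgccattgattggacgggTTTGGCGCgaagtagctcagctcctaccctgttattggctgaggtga
Mcm5: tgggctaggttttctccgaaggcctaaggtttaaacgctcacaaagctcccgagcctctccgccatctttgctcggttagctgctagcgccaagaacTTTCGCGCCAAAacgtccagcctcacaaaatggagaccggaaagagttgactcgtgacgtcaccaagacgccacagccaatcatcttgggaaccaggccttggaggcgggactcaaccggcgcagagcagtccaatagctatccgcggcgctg
Cdk2: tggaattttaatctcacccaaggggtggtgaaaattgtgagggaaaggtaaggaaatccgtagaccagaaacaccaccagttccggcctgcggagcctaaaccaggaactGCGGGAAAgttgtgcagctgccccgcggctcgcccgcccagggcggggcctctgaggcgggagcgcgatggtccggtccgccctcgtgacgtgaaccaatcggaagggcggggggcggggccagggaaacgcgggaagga
Pola1: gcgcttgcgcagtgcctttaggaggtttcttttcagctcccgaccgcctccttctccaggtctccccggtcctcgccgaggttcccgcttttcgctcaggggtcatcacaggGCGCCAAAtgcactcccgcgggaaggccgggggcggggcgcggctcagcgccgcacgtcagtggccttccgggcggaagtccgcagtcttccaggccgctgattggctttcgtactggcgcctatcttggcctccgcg

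The E2F matches begin 110, 106 and 47 bases before the start in Mcm6, 153 and 149 bases before it in Mcm5, 140 bases before it in Cdk2 and 138 bases before it in Pola1. An E2F match was present in 14 of the 42 windows of these genes (33.3%) and in 744 of all 32851 windows of that length (2.26%). A CCAAT box (CCAAT) was present in 59.5% of their windows and 37.4% of all windows. A GC box (GGGCGG), the binding motif of SP1, was present in 71.4% and 35.7%. The motifs CHR (TTTGAA) and AP-1 (TGACTCA or TGAGTCA) were present in 9.52% and 0% of their windows, beside 17.9% and 5.20% of all windows. All motifs were searched on both strands, and a match is a description of the letters, not of binding. By gene, 14 of the 35 with a window had an E2F match (40.0%). Of the 12 windows of genes lower at 8 h in the libraries labelled 1,25D, 4 had one (33.3%). So did 10 of the other 30 windows (33.3%).

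The inhibitor genes had no E2F match in their windows. Their stretches are printed with GC boxes in capitals, for Cdkn1a at chr17:29093519-29093768 and for Cdkn1b at chr6:134920151-134920400, both on the plus strand. The Cdkn1a stretch ends at the base before the start of the transcript that held 99.1 to 99.6% of the gene's counts in each group, and the gene has a second window further upstream.
Cdkn1a: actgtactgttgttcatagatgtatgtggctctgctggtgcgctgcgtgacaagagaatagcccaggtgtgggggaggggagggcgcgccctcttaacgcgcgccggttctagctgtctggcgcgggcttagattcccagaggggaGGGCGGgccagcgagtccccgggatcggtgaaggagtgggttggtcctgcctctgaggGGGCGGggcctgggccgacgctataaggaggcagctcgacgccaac
Cdkn1b: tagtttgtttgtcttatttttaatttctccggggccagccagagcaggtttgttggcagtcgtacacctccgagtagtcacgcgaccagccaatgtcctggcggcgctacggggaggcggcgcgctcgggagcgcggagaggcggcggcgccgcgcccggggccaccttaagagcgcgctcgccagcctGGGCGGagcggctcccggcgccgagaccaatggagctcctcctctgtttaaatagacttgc

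Libraries were of similar depth, at 32.96 to 33.84 M estimated counts with a median of 33.66 M. Mitochondrially encoded genes held 9.01 to 16.92% of the counts, with the highest share in vehicle replicate 2 at 8 h. Against the label osteocytic, the mature osteocyte markers were low. Sost was at or below 0.115 TPM (transcript abundance scaled for length and library size), Mepe at or below 0.0218 TPM and Dmp1 at 0.757 to 1.79 TPM. Pdpn, an early osteocyte marker, was at 38.2 to 72.0 TPM and the bone collagen gene Col1a1 at 275 to 1317 TPM. Of the other osteoblast markers, Runx2 was at 10.2 to 41.4 TPM, Bglap at 2.24 to 7.845 TPM and Bglap2 at 2.71 to 14.45 TPM. Lower were Sp7 (at most 3.07 TPM), Alpl (at most 1.31 TPM) and Ibsp (at most 0.108 TPM). Defining markers of other cell types were near 0, such as Ptprc (at most 0.296 TPM), Pecam1 (at most 0.406 TPM) and Adipoq (at most 0.207 TPM), while Cd68 reached 18.8 TPM. Whether the 3 libraries of each group are separate cultures is not labelled, and the p-values cover the spread between these libraries, which may be technical. In RNA from whole cultures, fewer cells in S phase and less RNA per cell cannot be told apart.

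The replication genes were expressed in every library. Per transcript length, Pcna was the highest at a mean of 350 TPM over the 24 libraries. Mcm3 followed at 210 TPM, Rpa1 at 198 TPM, Mcm6 at 189 TPM and Orc6 at 188 TPM. The lowest were Gins1 at 19.4 TPM, Orc1 at 10.7 TPM and E2f2 at 0.862 TPM. Together the 42 genes held 0.601 to 0.697% of all counts. At 2 h this share was 0.668, 0.677 and 0.684% in vehicle libraries and 0.623, 0.614 and 0.629% in those labelled 1,25D. At 8 h it was 0.665, 0.674 and 0.697% in vehicle and 0.602, 0.601 and 0.614% in those labelled 1,25D. With both agents it ran from 0.618 to 0.651% at 2 h and from 0.612 to 0.657% at 8 h. The share was lower than in every vehicle library in the libraries labelled 1,25D and in those with both agents, at both times. The libraries labelled LPA, at 0.690, 0.679 and 0.656% at 2 h and 0.685, 0.662 and 0.665% at 8 h, overlapped vehicle.

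Levels moved little for most of these genes. The ratio of the highest to the lowest group mean in CPM was under 1.5 for 31 of the 42 genes, with a median of 1.32. It reached 2 or more for Cdkn1a (3.99), Cdkn1b (2.30) and Tk1 (2.02), and was lowest for Mcm5 (1.13). Spread was also small. The median within-group SD on the log2 CPM scale was 0.093 for these genes and 0.195 for all tested genes. The sets were not matched for expression level, and only for all tested genes was a small constant added before the log. In the 16 comparisons computed, 29 genes passed the test at least once. Cdkn1a and Cdkn1b passed in 8 comparisons each and Ccnd1 in 7. The 13 genes that passed in none of them were Mcm3, Mcm5, Cdc45, Cdt1, Gins1, Pcna, Rfc3, Rpa2, Prim1, Pold1, Rrm1, Tyms and E2f1. Under settings other than leaving out a library, 8 of these 13 (Mcm3, Cdc45, Cdt1, Pcna, Rpa2, Pold1, Tyms and E2f1) did pass at least once.

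**Figure D1:**
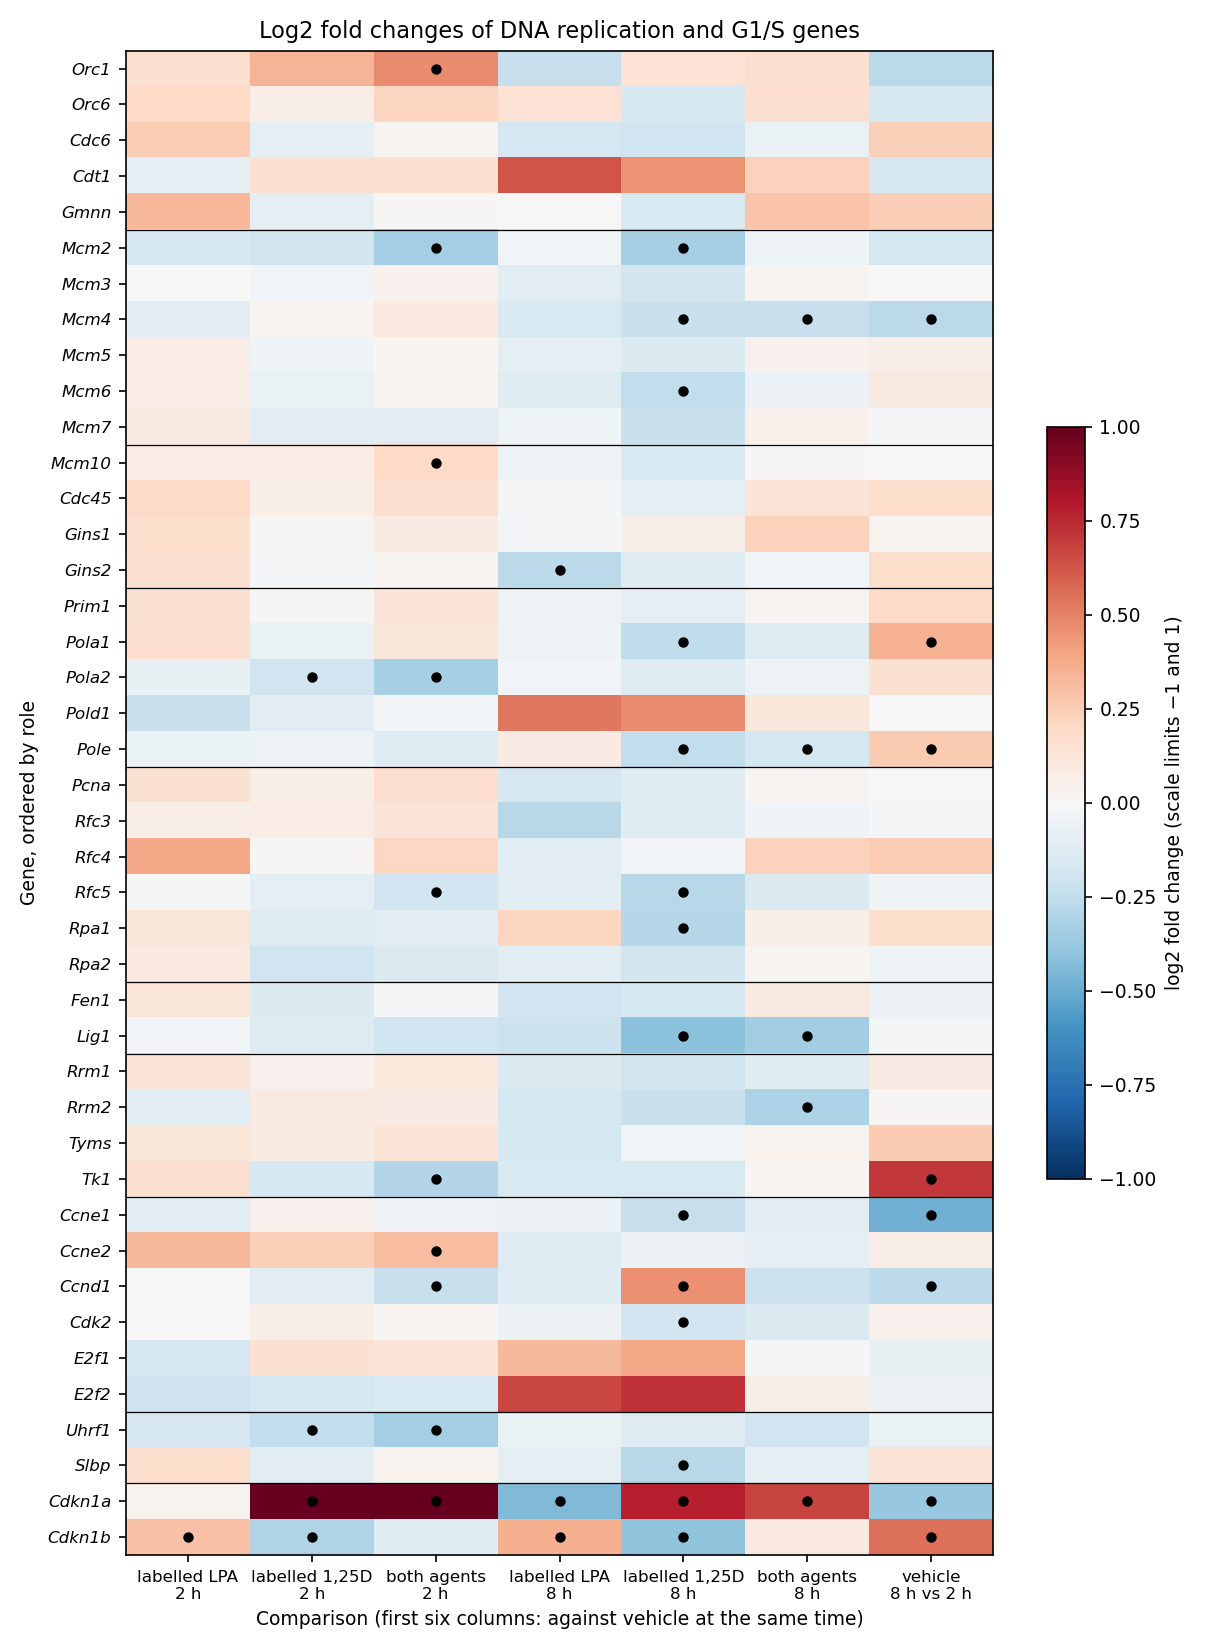
Log2 fold changes of the 42 genes (rows, ordered by role, roles separated by lines) in 7 comparisons (columns); black dots mark adjusted p under 0.05 and colours are limited to values from −1 to 1. Cdkn1a stands out in the columns of the libraries labelled 1,25D and of both agents, and the column of the libraries labelled 1,25D at 8 h holds the most dots, 14.

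Counts of genes past the test are given with the share of all 16424 tested genes past it in the same direction, or either way where so stated. A gene passed where its adjusted p from edgeR's quasi-likelihood test, with Benjamini-Hochberg adjustment over all tested genes, was under 0.05. At 2 h in the libraries labelled LPA, 1 gene was higher than in vehicle (0.597% of all genes) and 0 were lower (0.189%), the 1 being Cdkn1b. In those labelled 1,25D at 2 h, 1 gene was higher (7.06%) and 3 were lower (6.85%). With both agents at 2 h, 10 genes passed (19.9% of all genes, either way), 4 of them higher and 6 lower. Of all 16424 tested genes, 1623 were higher and 1644 lower there. Of the 42 genes, 2.38% were higher and 7.14% lower in the libraries labelled 1,25D, the first below and the second near the share of all genes. With both agents 9.52% were higher, near the share of all genes, and 14.3% lower, above it. Whether these shares differ from those of all genes was not tested. With offsets for GC content and length the splits at 2 h became 3 higher and 2 lower (labelled 1,25D) and 5 higher and 4 lower (both agents). On the log2(TPM + 1) scale they became 1 and 6, and 2 and 8, and without the low-count filter 1 and 1, and 3 and 4. For the libraries labelled LPA the count of 1 became 0 without any 1 of the 6 libraries except labelled LPA replicate 3. For those labelled 1,25D the 4 became 2 without vehicle replicate 1 or 3 or labelled 1,25D replicate 1. For both agents the 10 became 6 without vehicle replicate 1 or 2 or both-agents replicate 2.

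At 8 h the libraries labelled LPA had 1 gene higher (6.62% of all genes) and 2 lower (5.38%). Those labelled 1,25D had 2 genes higher (7.89%) and 12 lower (8.32%), or 28.6% of the 42 genes lower. Both agents had 1 gene higher (9.54%) and 4 lower (7.25%). The median log2 fold change of the 42 genes was −0.16 in the libraries labelled 1,25D, beside 0.00 for all tested genes, and 34 of the 42 were below 0. The libraries labelled LPA also had 34 of the 42 below 0 against the same vehicle libraries, with a median of −0.09. With GC and length offsets 27 were below 0 in those labelled 1,25D and 25 in those labelled LPA. On the log2(TPM + 1) scale these counts were 32 and 17. In 26 of the 42 all libraries labelled 1,25D lay below all vehicle libraries, beside 18.2% of all tested genes. Without the low-count filter the split was 6 higher and 6 lower: Pole, Mcm4, Mcm6, Pola1, Cdk2 and Ccne1 no longer passed, and Cdt1, E2f1, E2f2 and Pold1 passed as higher. The count moved with single libraries: 8 genes passed without vehicle replicate 2, 9 without labelled 1,25D replicate 2 or 3, and 17 without vehicle replicate 3. On the log2(TPM + 1) scale 2 were higher and 4 lower in the libraries labelled 1,25D, and 3 higher and 1 lower in those labelled LPA. With GC and length offsets the libraries labelled LPA had 4 higher and 3 lower, and both agents had 4 and 4. With median-of-ratios scaling, 1 was higher and 3 lower in those labelled LPA, and without the low-count filter 5 were higher and 1 lower. The 3 genes of the libraries labelled LPA became 7 without vehicle replicate 3 and 8 without labelled LPA replicate 1. The comparisons with vehicle share the vehicle libraries of their time. The summed level of 9 osteocyte markers was 143 to 158 TPM in vehicle at 8 h and 184 to 196 TPM in the libraries labelled 1,25D, and its part in these counts was not tested. Most of this sum came from Pdpn, Cd44 (38.2 to 148 TPM over all libraries) and Gja1 (43.75 to 127 TPM). Each of the other markers stayed at or below 1.8 TPM.

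The CDK inhibitor genes gave the clearest differences. Cdkn1a, which encodes p21, rose in the libraries labelled 1,25D and with both agents at both times, and was lower than vehicle in the 8 h libraries labelled LPA. At 2 h vehicle libraries were at 59.8, 55.25 and 53.6 CPM and those labelled 1,25D at 122, 128 and 131 CPM. The lowest treated library was higher than every vehicle library, and the log2 fold change was 1.18 ± 0.10 (SE, n = 3), an increase of 126% (adjusted p = 3.15e-08). With both agents at 2 h the libraries were at 115, 97.1 and 125 CPM, a log2 fold change of 1.00 ± 0.10 (adjusted p = 2.90e-07). The libraries labelled LPA, at 56.35, 55.1 and 61.1 CPM, overlapped vehicle at 2 h, with a log2 fold change of 0.03 ± 0.10 (adjusted p = 0.90).

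At 8 h vehicle libraries held less Cdkn1a, at 44.4, 49.0 and 36.7 CPM. The libraries labelled 1,25D were at 69.5, 79.7 and 73.2 CPM, 0.77 ± 0.10 above vehicle on the log2 scale (adjusted p = 2.24e-05). Both agents gave 66.4, 78.6 and 62.4 CPM, 0.67 ± 0.10 above vehicle (adjusted p = 5.31e-05). Neither group overlapped vehicle. The libraries labelled LPA were at 33.3, 31.0 and 31.4 CPM, below every vehicle library, and fell by 0.44 on the log2 scale (SE 0.10, adjusted p = 0.0064), a call lost with the compared groups fitted alone. Both agents against labelled LPA differed by 1.11 ± 0.10 at 8 h (adjusted p = 1.90e-07), while both agents against labelled 1,25D differed by −0.10 ± 0.10 (adjusted p = 0.57), which does not show that they were equal.

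Cdkn1b, which encodes p27, was higher in the libraries labelled LPA and lower in those labelled 1,25D at both times. At 2 h vehicle libraries were at 89.0, 84.0 and 83.65 CPM. The libraries labelled LPA were higher at 106, 106.5 and 101 CPM, with a log2 fold change of 0.29 ± 0.06 (SE, adjusted p = 0.020), and those labelled 1,25D were lower at 68.3, 68.0 and 72.5 CPM, −0.30 ± 0.06 (adjusted p = 0.0017). The rise at 2 h passed under only 4 of 13 alternative settings and lost the call without any 1 of the 3 vehicle libraries or labelled LPA replicate 1 or 2. At 8 h vehicle was at 128, 134 and 114 CPM, labelled LPA at 158, 162 and 159.5 CPM and labelled 1,25D at 94.05, 97.4 and 93.0 CPM. The 3 groups did not overlap, with log2 fold changes of 0.35 ± 0.06 (adjusted p = 3.22e-04) and −0.40 ± 0.06 (adjusted p = 1.03e-04), the first lost with the compared groups fitted alone. With both agents Cdkn1b was at 138, 136 and 128 CPM, between the single treatments, and differed from vehicle by 0.10 ± 0.06 (adjusted p = 0.33). At 2 h both agents were at 77.7, 74.6 and 84.3 CPM, overlapping vehicle.

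**Figure D2:**
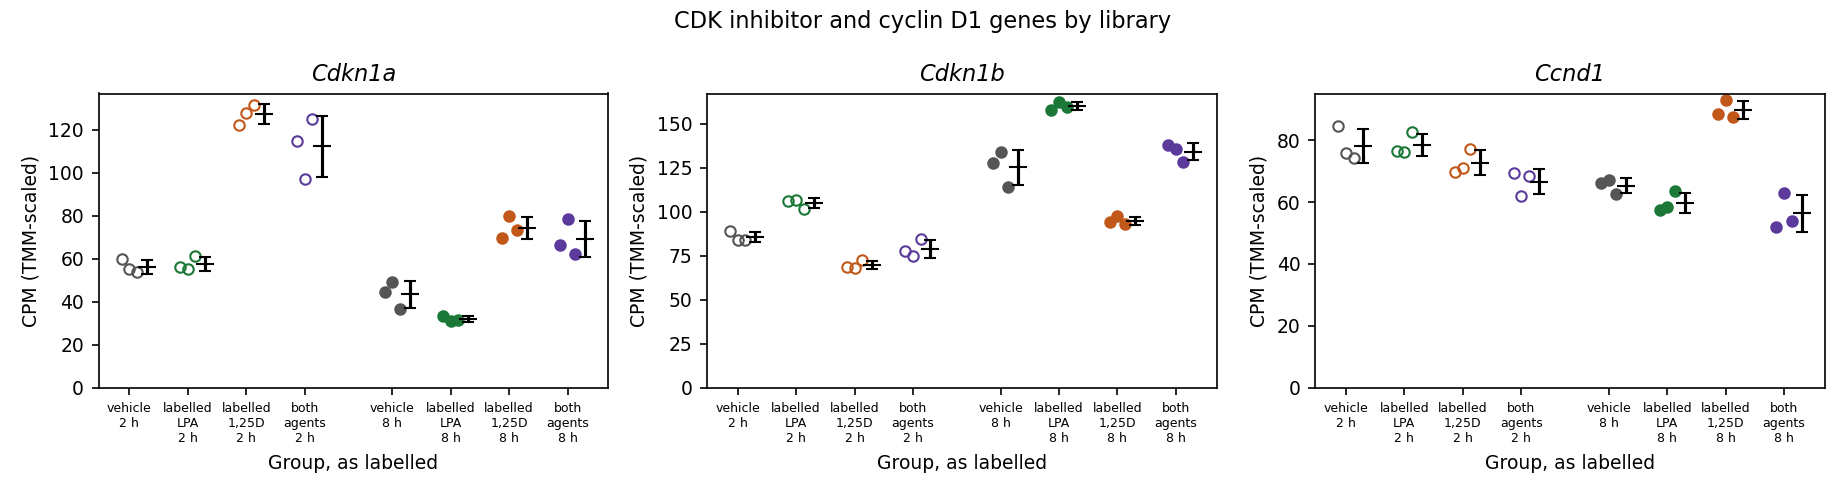
CPM of Cdkn1a, Cdkn1b and Ccnd1 (cyclin D1) in every library, by labelled group and time (open circles 2 h, filled circles 8 h); bars show the mean ± SD of 3 libraries. Cdkn1a is highest in the 2 h libraries labelled 1,25D and with both agents, Cdkn1b in the 8 h libraries labelled LPA, and Ccnd1 in the 8 h libraries labelled 1,25D, at 88.7, 93.0 and 87.4 CPM.

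Among the genes that drive the G1/S step, cyclin D1 showed the clearest difference between the single and the combined treatment. Ccnd1 rose at 8 h in the libraries labelled 1,25D, at 88.7, 93.0 and 87.4 CPM against 66.3, 67.0 and 62.6 CPM in vehicle. The log2 fold change was 0.46 ± 0.08 (adjusted p = 2.41e-04), and the call held in all 13 alternatives. With both agents Ccnd1 was at 52.0, 63.1 and 54.0 CPM, overlapping vehicle (−0.21 ± 0.08, adjusted p = 0.061), and it was lower than with labelled 1,25D by −0.67 ± 0.08 (adjusted p = 1.88e-06). The difference of both agents from vehicle passed with DESeq2 (−0.22, adjusted p = 0.044) and on the log2(TPM + 1) scale (−0.40, adjusted p = 0.010). The labelled LPA libraries had Ccnd1 at 57.3, 58.3 and 63.6 CPM (−0.13 ± 0.08, adjusted p = 0.26). At 2 h they had it at 76.5, 76.2 and 82.7 CPM, overlapping vehicle. The order of the other groups also differed at 2 h. Vehicle was at 84.5, 75.8 and 74.15 CPM, and both agents were lower at 69.3, 61.95 and 68.6 CPM, −0.23 ± 0.08 (adjusted p = 0.034), a call lost without vehicle replicate 1 or 2 or both-agents replicate 2, without the low-count filter, with GC and length offsets and with the compared groups fitted alone. The libraries labelled 1,25D, at 69.7, 71.1 and 77.3 CPM, overlapped vehicle at 2 h.

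Cyclin E genes moved less. Ccne1 at 8 h was at 18.0, 15.5 and 17.1 CPM in the libraries labelled 1,25D and at 19.6, 18.7 and 21.0 CPM in vehicle, −0.23 ± 0.08 (adjusted p = 0.049), and that call passed under 2 of 13 alternatives and was lost without any 1 of the 6 libraries. With both agents at 8 h Ccne1 was at 18.3, 18.2 and 18.6 CPM, below every vehicle library without passing, and with labelled LPA it overlapped vehicle at 19.4, 18.6 and 18.9 CPM. Its 2 h values overlapped vehicle in each treated group, at 27.6, 24.9 and 23.99 CPM (labelled LPA), 28.1, 30.5 and 26.2 CPM (labelled 1,25D) and 27.8, 25.3 and 27.3 CPM (both agents). Ccne2, the second cyclin E gene, rose at 2 h with both agents, from 64.2, 71.3 and 76.2 CPM to 86.3, 84.9 and 91.7 CPM (0.31 ± 0.11, adjusted p = 0.042). It was lost without vehicle replicate 1 or 2 or any both-agents library, and on the log2(TPM + 1) scale. Its values in the libraries labelled LPA at 2 h were 85.6, 89.2 and 90.1 CPM, likewise above every vehicle library, but the adjusted p was 0.18. Those labelled 1,25D were at 82.1, 87.6 and 79.8 CPM, also above vehicle without passing. At 8 h Ccne2 was at 67.4, 89.3 and 64.6 CPM in vehicle, 72.1, 59.5 and 70.9 CPM in the libraries labelled LPA, 66.4, 70.3 and 75.4 CPM in those labelled 1,25D and 64.9, 78.4 and 63.4 CPM with both agents, and all groups overlapped. Cdk2 was lower at 8 h in the libraries labelled 1,25D, at 117, 125 and 129 CPM against 143.5, 148 and 132 CPM, −0.19 ± 0.06 (adjusted p = 0.045), and passed under 2 of 13 alternatives.

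Of the 5 licensing genes (Orc1, Orc6, Cdc6, Cdt1 and Gmnn), 1 passed in a comparison with vehicle in edgeR with the low-count filter and TMM scaling. Orc6 passed as higher in the 8 h libraries labelled LPA with GC and length offsets (0.36, adjusted p = 0.0001). On the log2(TPM + 1) scale it also passed there (0.27, adjusted p = 0.013). Orc1, the largest subunit of the origin recognition complex, rose at 2 h with both agents, at 29.8, 31.7 and 34.6 CPM against 19.7, 24.6 and 24.9 CPM. The log2 fold change was 0.47 ± 0.12 (adjusted p = 0.0054), and the groups did not overlap. The call was lost without vehicle replicate 1. In the libraries labelled 1,25D at 2 h Orc1 was at 28.6, 31.3 and 27.5 CPM, also above every vehicle library (0.34 ± 0.12, adjusted p = 0.058). That rise passed with the replicate block (adjusted p = 0.047), with GC and length offsets (adjusted p = 0.026) and with DESeq2 (adjusted p = 0.037). Cdc6, the loader that recruits the helicase, was at 117, 117 and 119 CPM in the libraries labelled LPA at 2 h and at 90.6, 102 and 103 CPM in vehicle, and did not pass (0.25 ± 0.08, adjusted p = 0.17). Its other 2 h groups, at 87.5, 91.5 and 99.1 CPM (labelled 1,25D) and 91.5, 97.0 and 114 CPM (both agents), overlapped vehicle. At 8 h Cdc6 was at 115, 122 and 110.5 CPM in vehicle, 109, 99.0 and 102 CPM with labelled LPA, 98.1, 101 and 105 CPM with labelled 1,25D and 109.8, 122 and 99.6 CPM with both agents. Each single treatment lay below every vehicle library at 8 h, and neither passed. Gmnn, the gene of the CDT1 inhibitor geminin, was at 13.9, 15.2 and 15.2 CPM in vehicle at 2 h and at 19.3, 19.9 and 16.5 CPM in the libraries labelled LPA (0.33 ± 0.12, adjusted p = 0.24). Those labelled 1,25D were at 13.02, 14.3 and 14.1 CPM and both agents at 12.2, 17.3 and 15.2 CPM. At 8 h Gmnn was at 17.3, 16.4 and 18.8 CPM in vehicle, 18.7, 16.2 and 17.4 CPM with labelled LPA, 15.4, 14.6 and 17.0 CPM with labelled 1,25D and 19.6, 25.6 and 18.7 CPM with both agents. Apart from the 2 h libraries labelled LPA, which lay above vehicle, each of these groups overlapped its vehicle libraries.

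The MCM helicase genes lay lower at 8 h in the libraries labelled 1,25D. All 6 had negative log2 fold changes there with TMM, median-of-ratios, GC-offset and TPM scaling, with a TMM median of −0.22, and 3 of the 6 passed. Mcm2 was at 349, 354 and 336 CPM against 450, 423 and 433 CPM in vehicle (−0.33 ± 0.07, adjusted p = 0.0018). Mcm4 was at 262, 270 and 262 CPM against 310, 308 and 307 CPM (−0.22 ± 0.06, adjusted p = 0.0086). Mcm6 was at 424.5, 412 and 418.5 CPM against 479, 532 and 476 CPM (−0.24 ± 0.07, adjusted p = 0.026). None of these 3 overlapped vehicle, but the calls rested on the settings. On the log2(TPM + 1) scale Mcm2 and Mcm4 were lost, and without the low-count filter Mcm4 and Mcm6. Mcm6 was also lost with the compared groups fitted alone and without vehicle replicate 2 or labelled 1,25D replicate 2 or 3. Mcm3, Mcm5 and Mcm7 did not pass, with log2 fold changes of −0.18, −0.14 and −0.22, but Mcm7 did with DESeq2 (adjusted p = 0.0495). The 8 h libraries labelled LPA, compared with the same vehicle libraries, also had all 6 genes below 0 with TMM scaling. There the values ran from −0.149 to −0.028 with a median of −0.097, and 0 passed. With DESeq2 Mcm4 did pass there (−0.16, adjusted p = 0.0185).

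With both agents 1 subunit gene passed at each time. At 8 h Mcm4 was lower, at 247, 284 and 255 CPM (−0.23 ± 0.06, adjusted p = 0.0040), a call lost without the low-count filter and with the compared groups fitted alone. Mcm2, at 420, 443 and 397 CPM, overlapped vehicle at 8 h (−0.05 ± 0.07, adjusted p = 0.70). At 2 h it was Mcm2 that was lower, at 401, 354 and 413 CPM against 478, 490 and 510 CPM in vehicle (−0.34 ± 0.07, adjusted p = 8.27e-04), a call lost with GC and length offsets. Mcm4, at 373, 395 and 423 CPM, overlapped vehicle at 2 h. The difference of the Mcm4 effect of both agents between the times was tested and was −0.33 ± 0.08 (adjusted p = 0.0080), called in 15 of 19 alternatives. For Mcm2 this difference did not pass in edgeR, and it did with DESeq2 (0.28, adjusted p = 0.033). Mcm5 did not pass in the comparisons with vehicle at either time, with log2 fold changes between −0.14 and 0.07. At 2 h it was at 267, 280.3 and 289.8 CPM in vehicle, 293, 296 and 292 CPM with labelled LPA, 272, 262 and 279 CPM with labelled 1,25D and 274, 272 and 304 CPM with both agents. At 8 h the same groups were at 299, 311 and 267 CPM, 299, 247 and 278 CPM, 259.9, 266 and 272 CPM and 290.4, 338 and 274 CPM. The 2 h libraries labelled LPA lay above vehicle and the other groups overlapped it.

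Of the genes that act with the helicase at origin firing (Mcm10, Cdc45, Gins1 and Gins2), 2 passed in comparisons with vehicle. Gins2, a GINS subunit, was lower at 8 h in the libraries labelled LPA, at 129, 114 and 131 CPM against 147, 153 and 149 CPM (−0.26 ± 0.08, adjusted p = 0.028), lost without vehicle replicate 2 or labelled LPA replicate 2, and under 3 other settings. Mcm10 was higher at 2 h with both agents, at 87.1, 89.7 and 91.3 CPM against 75.4, 74.6 and 83.3 CPM (0.20 ± 0.07, adjusted p = 0.045), and passed under 4 of 13 alternatives. Neither group overlapped its vehicle libraries.

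Among the polymerase genes, Pole and Pola1 were lower at 8 h in the libraries labelled 1,25D. Pole encodes the catalytic subunit of the leading-strand polymerase epsilon. It had the smallest within-group SD of the 42 genes, 0.041 on the log2 CPM scale. It was at 158, 168 and 164 CPM in the libraries labelled 1,25D and at 169, 173 and 172 CPM with both agents, below every vehicle library at 194, 190.5 and 197 CPM. The log2 fold changes were −0.25 ± 0.05 (adjusted p = 0.0016) and −0.18 ± 0.05 (adjusted p = 0.015), called in 11 and 8 of 13 alternatives. Both were lost without the low-count filter and on the log2(TPM + 1) scale, and the second also with GC and length offsets, with the compared groups fitted alone and without vehicle replicate 3. The labelled LPA libraries had Pole at 203, 209 and 203 CPM (0.08 ± 0.05, adjusted p = 0.28). Pola1 was at 103, 108.5 and 109 CPM in the libraries labelled 1,25D against 126, 134 and 123 CPM (−0.26 ± 0.08, adjusted p = 0.039), a call lost in 5 of the 6 fits that left out a library, without the low-count filter and on the log2(TPM + 1) scale.

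Pola2, the second subunit of polymerase alpha, was lower at 2 h instead. Vehicle libraries were at 151.5, 147.5 and 147 CPM, those labelled 1,25D at 122, 136 and 131 CPM and those with both agents at 116, 115 and 123 CPM. Both treated groups lay below every vehicle library. The log2 fold changes were −0.20 ± 0.06 (adjusted p = 0.024) and −0.33 ± 0.06 (adjusted p = 2.26e-04). The first was called in 5 of 13 alternatives and lost in 4 of the 6 fits that left out a library, and the second held in all 13 alternatives. At 8 h Pola2 with both agents was at 148, 170 and 159 CPM, overlapping vehicle at 166, 170 and 160 CPM.

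Clamp, clamp loader and single-strand binding genes had all 6 values below 0 in the libraries labelled 1,25D at 8 h, with a median of −0.15, but 3 were above 0 with GC and length offsets and 1 on the TPM scale. Rfc5 and Rpa1 passed. Rfc5, a clamp loader subunit, was at 92.05, 95.1 and 87.0 CPM against 107, 111 and 114 CPM (−0.28 ± 0.06, adjusted p = 0.0016), lost on the log2(TPM + 1) scale. Rpa1, the large subunit of the single-strand binding protein, was at 277, 266 and 263.5 CPM against 314, 357 and 313 CPM (−0.29 ± 0.07, adjusted p = 0.011), lost without vehicle replicate 2. Rpa1 was at 387, 362 and 392 CPM in the libraries labelled LPA at 8 h, above every vehicle library, and did not pass (0.21 ± 0.07, adjusted p = 0.059). That rise did pass with GC and length offsets (0.28, adjusted p = 0.0011), with DESeq2 (0.20, adjusted p = 0.048) and on the log2(TPM + 1) scale (0.33, adjusted p = 0.0008). Rfc5 was also lower at 2 h with both agents, at 98.9, 97.1 and 103.5 CPM against 113, 117 and 113 CPM (−0.20 ± 0.06, adjusted p = 0.017), lost without vehicle replicate 2 or both-agents replicate 1 or 2, without the low-count filter and with the compared groups fitted alone. Pcna, the sliding clamp gene, passed in no comparison in edgeR. At 8 h it was at 385, 446 and 392 CPM in vehicle and at 372.5, 363.5 and 385 CPM in the libraries labelled 1,25D, with the highest of these just above the lowest vehicle library. With labelled LPA it was at 394, 342 and 353 CPM and with both agents at 417, 451 and 375 CPM, overlapping vehicle. At 2 h vehicle was at 381, 418 and 426 CPM and the libraries labelled 1,25D at 404, 422 and 448 CPM. Those labelled LPA, at 456, 478 and 430.3 CPM, and with both agents, at 428, 473 and 474 CPM, lay above every vehicle library without passing.

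Lig1, the DNA ligase that seals Okazaki fragments, had the lowest log2 fold change of the 42 genes in the libraries labelled 1,25D at 8 h, with Cdkn1b next to it. It was at 183, 198 and 183 CPM in the libraries labelled 1,25D and at 184, 221 and 183 CPM with both agents. Vehicle was at 241, 263 and 244 CPM, above all of them. The log2 fold changes were −0.41 ± 0.07 (adjusted p = 5.40e-04) and −0.35 ± 0.07 (adjusted p = 0.0015). The first held in all 13 alternatives, and the second was lost when the compared groups were fitted alone. The libraries labelled LPA, at 223, 202 and 221 CPM, also lay below vehicle without passing (−0.21 ± 0.07, adjusted p = 0.060). Lig1 did pass there with median-of-ratios scaling (adjusted p = 0.049), with GC and length offsets (adjusted p = 0.038) and with DESeq2 (adjusted p = 0.030). Fen1, the flap endonuclease that acts before the ligase, did not pass against vehicle.

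**Figure D3:**
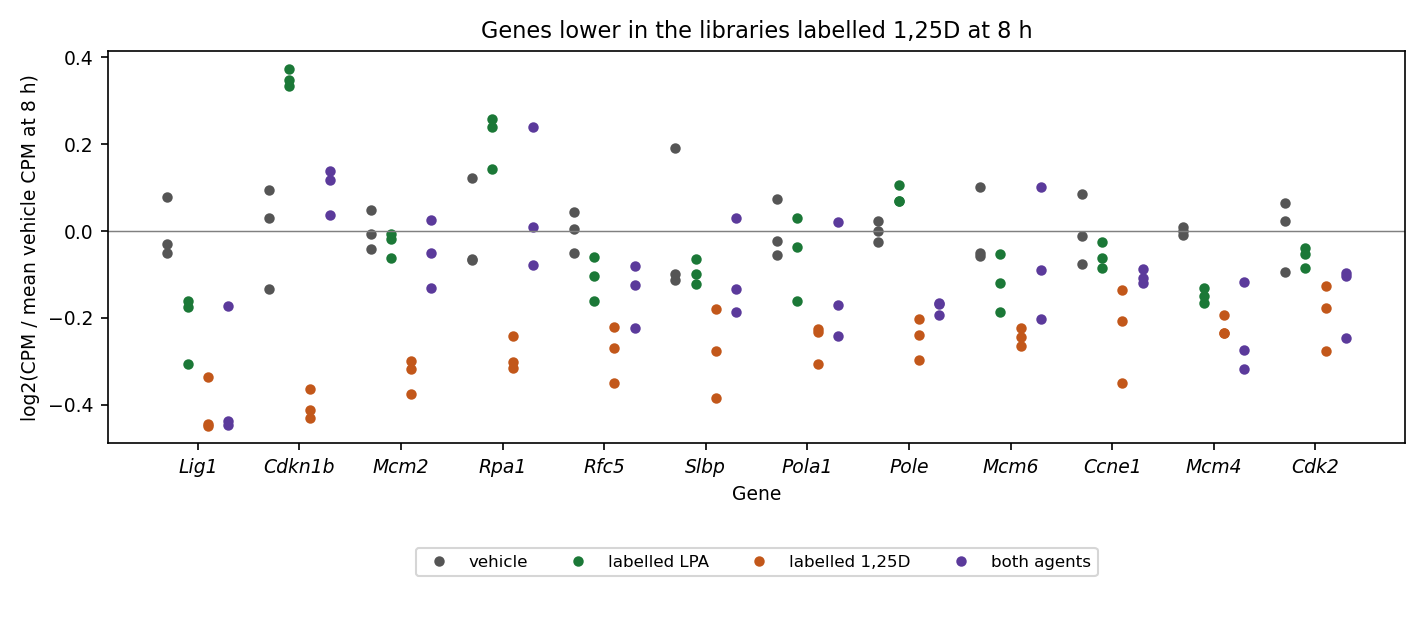
Log2 ratio of each 8 h library to the mean of the vehicle libraries (CPM) for the 12 genes lower in the libraries labelled 1,25D at 8 h, ordered by fold change; each point is 1 library. The orange points (labelled 1,25D) lie below 0 for every gene, while the purple points (both agents) lie near them for Lig1, Pole and Mcm4 and near vehicle for Cdkn1b, Mcm2 and Rpa1.

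Of the nucleotide supply genes, Rrm2 and Tk1 each passed with both agents at 1 of the times. The difference of this effect between the times passed for Rrm2 and not for Tk1 in edgeR. For Tk1 it passed on the log2(TPM + 1) scale (0.32, adjusted p = 0.0066). Rrm2, the S-phase subunit of ribonucleotide reductase, was lower at 8 h, at 64.1, 73.3 and 62.8 CPM against 86.0, 81.7 and 81.4 CPM in vehicle (−0.32 ± 0.08, adjusted p = 0.0047), lost with the compared groups fitted alone. The labelled 1,25D libraries had Rrm2 at 71.9, 71.2 and 70.8 CPM, also below vehicle (−0.22 ± 0.08, adjusted p = 0.050) but not past the threshold. That difference passed with DESeq2 (adjusted p = 0.036). With labelled LPA Rrm2 was at 75.0, 74.9 and 70.4 CPM, below vehicle without passing. At 2 h Rrm2 was at 88.8, 80.9 and 77.7 CPM in vehicle, 76.7, 76.4 and 75.8 CPM with labelled LPA, 89.1, 84.8 and 89.5 CPM with labelled 1,25D and 75.6, 90.0 and 96.0 CPM with both agents. The libraries labelled LPA lay just below vehicle there, and the others overlapped it. Tk1, thymidine kinase, was lower at 2 h with both agents, at 99.9, 101 and 108.5 CPM against 128, 128 and 122 CPM (−0.29 ± 0.08, adjusted p = 0.010), a call lost with GC and length offsets. At 8 h Tk1 with both agents, at 203, 229 and 193 CPM, overlapped vehicle at 201, 227 and 189 CPM. Rrm1 and Tyms passed in no comparison in the edgeR test described.

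Uhrf1, which binds hemimethylated DNA behind the fork and recruits the maintenance methyltransferase, was lower at 2 h. Vehicle was at 202, 190.5 and 211 CPM, the libraries labelled 1,25D at 167, 176 and 167 CPM and both agents at 175, 135 and 166 CPM. The log2 fold changes were −0.24 ± 0.07 (adjusted p = 0.024) and −0.34 ± 0.07 (adjusted p = 0.0012). The first was lost without vehicle replicate 1 or 3 or labelled 1,25D replicate 1 or 3, without the low-count filter and on the log2(TPM + 1) scale, and the second held in all 13 alternatives. Uhrf1 with labelled LPA at 2 h was at 189, 169 and 180.4 CPM. At 8 h it was at 192, 189 and 196 CPM in vehicle, 185, 183 and 182 CPM with labelled LPA, 174, 178 and 175 CPM with labelled 1,25D and 170.0, 166 and 165 CPM with both agents. All of these treated groups lay below their vehicle libraries without passing. Both agents at 8 h did pass with median-of-ratios scaling (adjusted p = 0.048), with GC and length offsets (adjusted p = 0.038) and with DESeq2 (adjusted p = 0.036). Slbp, which binds the stem-loop of histone mRNAs, was lower at 8 h in the libraries labelled 1,25D, at 120, 112 and 104 CPM against 126, 155 and 127 CPM (−0.28 ± 0.08, adjusted p = 0.016), lost without vehicle replicate 2 or labelled 1,25D replicate 2 or 3, with the compared groups fitted alone and on the log2(TPM + 1) scale. With labelled LPA it was at 130.0, 125 and 127 CPM and with both agents at 124, 139 and 119 CPM, overlapping vehicle. At 2 h Slbp was at 118, 122 and 130.3 CPM in vehicle, 136, 144 and 137 CPM with labelled LPA, 115, 114 and 114 CPM with labelled 1,25D and 120.4, 127 and 132 CPM with both agents. There the libraries labelled LPA lay above and those labelled 1,25D below every vehicle library, and neither passed.

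Vehicle libraries themselves differed between 8 h and 2 h. Here 4 of the 42 genes were higher at 8 h (5.88% of all genes) and 4 lower (8.69%). With GC and length offsets 7 were higher and 6 lower, on the log2(TPM + 1) scale 3 and 8, and without the low-count filter 3 and 2. Without 2 h vehicle replicate 1, 5 genes passed in place of 8. Tk1 rose from 128, 128 and 122 CPM at 2 h to 201, 227 and 189 CPM, a log2 difference of 0.70 ± 0.08 (adjusted p = 2.09e-06). Cdkn1b rose from 89.0, 84.0 and 83.65 CPM to 128, 134 and 114 CPM (0.55 ± 0.06, adjusted p = 2.22e-06). These groups stood clear of each other, and both calls held in all 13 alternatives. Pole rose from 154, 165 and 166 CPM to 194, 190.5 and 197 CPM (0.26 ± 0.05, adjusted p = 0.0010), called in 10 of 13 alternatives. Pola1 rose from 84.3, 107 and 108 CPM to 126, 134 and 123 CPM (0.35 ± 0.08, adjusted p = 0.0058), lost without 2 h vehicle replicate 1 and with the compared groups fitted alone.

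The genes lower in vehicle at 8 h included 2 cyclin genes. Ccne1 fell from 29.0, 26.6 and 26.9 CPM to 19.6, 18.7 and 21.0 CPM, −0.48 ± 0.08 (adjusted p = 1.98e-04), in all 13 alternatives. Ccnd1 was 0.26 lower, on the log2 scale (−0.26 ± 0.08, adjusted p = 0.023) and lost the call without 2 h vehicle replicate 1 or 8 h vehicle replicate 1 or 3. Mcm4 fell from 376, 377 and 362 CPM to 310, 308 and 307 CPM (−0.27 ± 0.06, adjusted p = 0.0018). Cdkn1a fell from 59.8, 55.25 and 53.6 CPM to 44.4, 49.0 and 36.7 CPM (−0.38 ± 0.10, adjusted p = 0.016), lost without 2 h vehicle replicate 1 or 8 h vehicle replicate 1 or 3. With the compared groups fitted alone the calls of Ccnd1, Mcm4 and Cdkn1a were lost, and without the low-count filter those of Ccnd1 and Mcm4. The 2 h and 8 h libraries did not overlap for any of these 4 genes. Time in culture and time of harvest cannot be told apart.

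**Figure D4:**
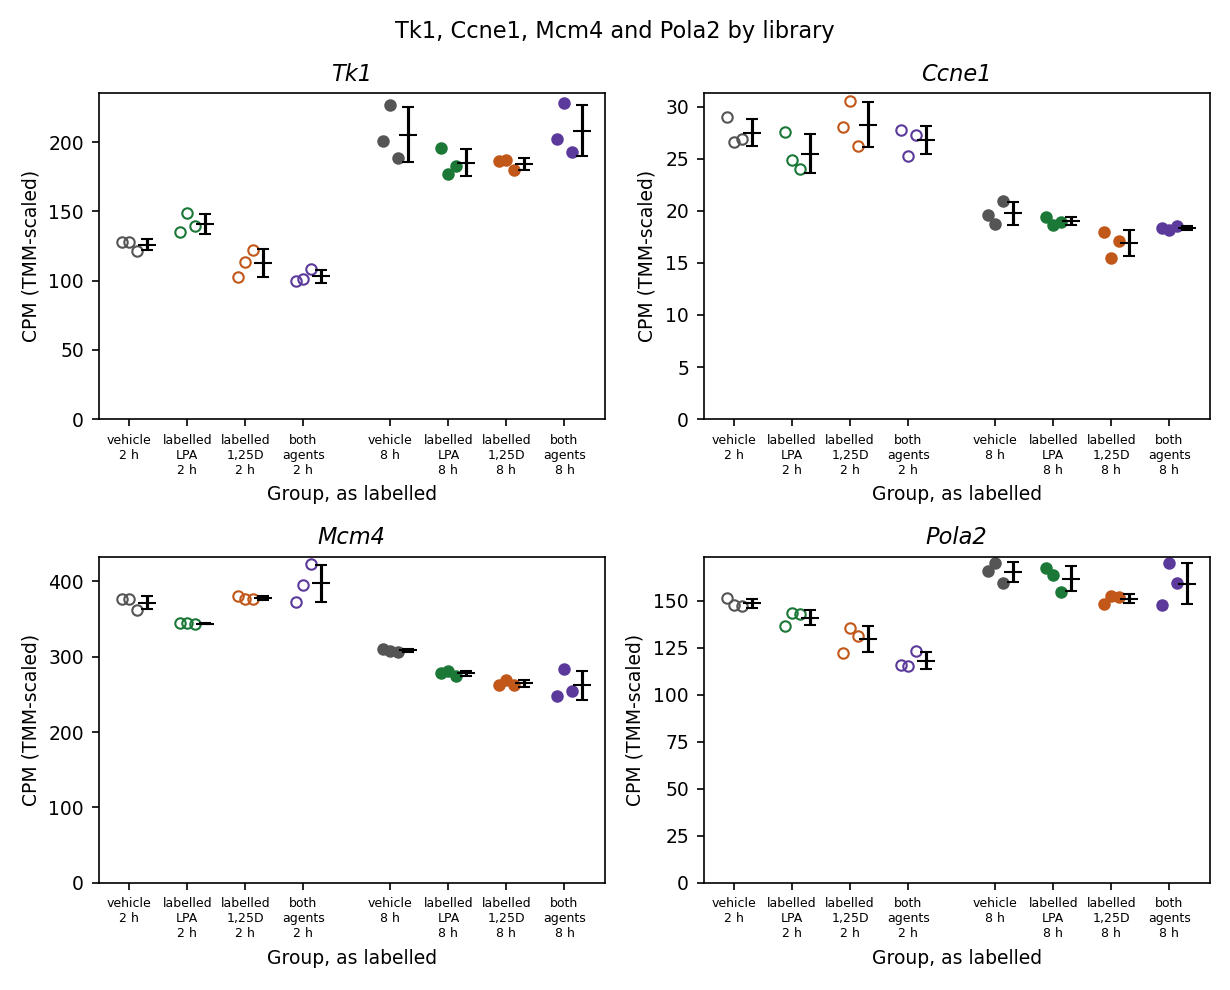
CPM of Tk1, Ccne1, Mcm4 and Pola2 in every library by labelled group and time (open circles 2 h, filled circles 8 h); bars show the mean ± SD of 3 libraries. Tk1 is higher and Ccne1 lower in every 8 h library than in any 2 h library. Pola2 has its lowest group mean in the 2 h libraries with both agents, at 116, 115 and 123 CPM, which overlap those labelled 1,25D at 2 h.

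Both agents were then compared with each single treatment. At 2 h, 2 genes were higher than in the libraries labelled LPA (9.22% of all genes) and 6 lower (9.48%). Cdkn1a and Mcm4 were higher, the latter at 373, 395 and 423 CPM against 345, 344.5 and 343 CPM (0.21 ± 0.05, adjusted p = 0.010). Cdkn1b (−0.41 ± 0.06, adjusted p = 5.25e-05), Tk1 (−0.45 ± 0.08, adjusted p = 2.59e-04) and Pola2 (−0.26 ± 0.06, adjusted p = 0.0031) were the lower genes with the smallest p. Against the libraries labelled 1,25D at 2 h, 0 genes passed in either direction in edgeR (0.609% of all genes higher and 0.158% lower). There 4 of the 42 had an unadjusted p under 0.05, and DESeq2 also called 0. The interaction at 2 h, which asks whether the effect of both agents differs from the sum of the single effects on the log2 scale, likewise gave 0 genes in edgeR and in DESeq2 (0.0244% of all genes higher and 0.0122% lower), with 2 of the 42 at an unadjusted p under 0.05. With GC and length offsets the split against the libraries labelled LPA was 4 higher and 7 lower, with the compared groups fitted alone 5 and 7, on the log2(TPM + 1) scale 3 and 4, and without the low-count filter 1 and 2, where Mcm4 and Pola2 no longer passed.

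At 8 h, 5 genes were higher with both agents than in the libraries labelled LPA (14.0% of all genes) and 2 lower (8.91%). This split rested on the scaling: it was 4 higher and 5 lower with GC and length offsets, 3 and 3 without the low-count filter, and 1 higher and 10 lower on the log2(TPM + 1) scale, where the median of all genes was shifted by −0.11. Over all tested genes 2301 were higher and 1464 lower with TMM scaling and the low-count filter. On the log2(TPM + 1) scale 887 were higher and 1850 lower, so the split of all genes turned likewise. Cdkn1a was higher under each scaling. Fen1 was at 111.5, 124.5 and 106 CPM against 102.5, 83.8 and 94.1 CPM (0.28 ± 0.08, adjusted p = 0.017), lost without labelled LPA replicate 2 or both-agents replicate 2. Orc1 (0.39 ± 0.12, adjusted p = 0.022) was lost without labelled LPA replicate 2 or 3 or both-agents replicate 2. Pole was lower (−0.26 ± 0.05, adjusted p = 7.57e-04) and did not overlap. Cdkn1b was the other lower gene (−0.25 ± 0.06, adjusted p = 0.0046). With the compared groups fitted alone, Cdkn1a was the 1 gene that passed. The 7 genes became 3 without labelled LPA replicate 2 and 12 without both-agents replicate 3.

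Against the libraries labelled 1,25D at 8 h, 7 genes were higher with both agents (5.74% of all genes) and 1 lower (3.43%), the 1 being Ccnd1. With GC and length offsets the split was 4 and 1, on the log2(TPM + 1) scale 2 and 1, and without the low-count filter 4 and 4. Cdkn1b was higher, at 138, 136 and 128 CPM against 94.05, 97.4 and 93.0 CPM (0.50 ± 0.06, adjusted p = 5.41e-06), in all 13 alternatives. Rpa1 was at 330, 387 and 311 CPM against 277, 266 and 263.5 CPM (0.35 ± 0.07, adjusted p = 0.0031), lost with the compared groups fitted alone. Mcm2 was at 420, 443 and 397 CPM against 349, 354 and 336 CPM (0.28 ± 0.07, adjusted p = 0.0099), lost without labelled 1,25D replicate 3 or both-agents replicate 2, without the low-count filter and on the log2(TPM + 1) scale. In these 3 genes the groups did not overlap. In place of 8 genes, 3 passed without both-agents replicate 2, 4 without labelled 1,25D replicate 2 or 3, and 5 without labelled 1,25D replicate 1. These comparisons share the libraries with both agents, so they are not independent of each other.

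The interaction at 8 h gave 2 genes above 0 (4.06% of all genes) and 2 below (3.62%). The split was 1 and 2 with median-of-ratios scaling, 3 and 1 with GC and length offsets, 0 and 1 on the log2(TPM + 1) scale and 11 and 5 with DESeq2. Without the low-count filter it was 1 above 0 (Fen1) and 5 below, namely Ccnd1, E2f2, Cdt1 (adjusted p = 2.35e-07), E2f1 (adjusted p = 4.60e-05) and Pold1 (adjusted p = 1.10e-07) in edgeR. The Cdt1 value was −0.85 with and without the filter, while its SE went from 0.302 to 0.145. With the filter, Ccnd1 had the smallest p, with −0.54 ± 0.11 (adjusted p = 0.018), and was called in 15 of 19 alternatives. Fen1 (0.46 ± 0.12, adjusted p = 0.039) and Gins2 (0.35 ± 0.11, adjusted p = 0.0496) were above 0, and E2f2 was below it (−1.33 ± 0.40, adjusted p = 0.049). Fen1 was lost in 8, and Gins2 in 9, of the 12 fits that left out a library. The count of genes past the test ran from 0 (without labelled 1,25D replicate 2 or labelled LPA replicate 2 or 3) to 24 (without both-agents replicate 3), so it rests on single libraries. It was 17 without vehicle replicate 3, 20 without labelled LPA replicate 1, 2 without vehicle replicate 1, and 1 without vehicle replicate 2, labelled 1,25D replicate 1 or 3 or both-agents replicate 1 or 2. Counts over all genes in the fits that left out a library are not given. With TMM scaling and the low-count filter 667 of all tested genes were above 0 and 595 below. These became 548 and 505 with GC and length offsets, and 1 and 21 on the log2(TPM + 1) scale.

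Whether a treatment effect at 8 h differed from that at 2 h was tested as a difference of log2 fold changes. For the libraries labelled LPA, 0 genes were above 0 (3.76% of all genes) and 2 below (3.0%): Gins2 (−0.42 ± 0.11, adjusted p = 0.024) and Cdc6 (−0.42 ± 0.12, adjusted p = 0.034). The count became 0 without 2 h vehicle replicate 1, labelled LPA replicate 2 at either time or 8 h vehicle replicate 2, and 1 without labelled LPA replicate 3 at either time. It became 11 without 8 h vehicle replicate 3 and 8 without 8 h labelled LPA replicate 1. With GC and length offsets 1 was above and 3 below 0, without the low-count filter 3 and 5, and on the log2(TPM + 1) scale 1 and 0. For those labelled 1,25D, Ccnd1 was the 1 gene above 0 (1.33%), by 0.56 ± 0.11 (adjusted p = 0.0027) and in all 19 alternatives, and 0 were below (2.84%), or 1 and 1 with GC and length offsets. The count of 1 became 2 without 8 h vehicle replicate 3.

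For both agents, Pola2 was above 0 (5.57%), by 0.28 ± 0.08 (adjusted p = 0.033), and Rrm2 and Mcm4 were below (4.11%), Rrm2 by −0.40 ± 0.11 (adjusted p = 0.020) and Mcm4 by −0.33 ± 0.08 (adjusted p = 0.0080). On the log2(TPM + 1) scale the split was 1 and 0, and without the low-count filter or with the compared groups fitted alone 0 and 0. The count of 3 became 1 without 2 h vehicle replicate 3, 8 h vehicle replicate 1 or 2 h both-agents replicate 2. Mcm4 kept its call in each fit that left out a library and lost it without the low-count filter, with GC and length offsets, with the compared groups fitted alone and on the log2(TPM + 1) scale.

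E2f1, E2f2, Cdt1 and Pold1 varied most between replicates. Pold1 encodes the catalytic subunit of polymerase delta. These 4 genes have the highest transcript GC content of the 42, at 57.9, 56.5, 59.9 and 60.9%, where the median is 50.2%. They also have the 4 largest within-group SDs, at 0.27, 0.40, 0.30 and 0.33 on the log2 CPM scale, where the other genes lie at 0.154 or below. In vehicle at 8 h Cdt1 was at 68.3, 37.2 and 90.7 CPM and Pold1 at 64.2, 29.6 and 76.9 CPM. E2f1 was at 51.8, 33.4 and 65.5 CPM and E2f2 at 3.04, 1.27 and 3.83 CPM. Replicate 2 was the low library in each of the 4. With both agents at 8 h replicate 2 was again the lowest, at 55.9 CPM for Cdt1 against 82.1 and 92.0 CPM, and at 44.4 CPM for Pold1 against 65.7 and 74.1 CPM. In the libraries labelled LPA at 8 h replicate 2 was instead the highest, with Cdt1 at 121 CPM against 87.3 and 94.6 CPM. E2f1 at 8 h was at 53.5, 77.6 and 57.9 CPM with labelled LPA, 63.8, 62.5 and 69.8 CPM with labelled 1,25D and 54.2, 37.2 and 58.0 CPM with both agents, and Cdt1 was at 87.8, 88.4 and 92.2 CPM with labelled 1,25D. At 2 h E2f1 was at 61.5, 51.3 and 45.6 CPM in vehicle, 53.2, 41.0 and 46.0 CPM with labelled LPA, 60.1, 59.8 and 56.4 CPM with labelled 1,25D and 63.1, 59.3 and 50.5 CPM with both agents. For Cdt1 the same 2 h groups were at 88.3, 69.1 and 62.4 CPM, 72.1, 66.3 and 67.7 CPM, 83.9, 79.5 and 80.6 CPM and 88.3, 82.6 and 73.5 CPM. Each of these treated groups overlapped its vehicle libraries.

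In vehicle replicate 2 at 8 h the 4 genes deviated from their group means by −0.54 (E2f1), −0.95 (E2f2), −0.72 (Cdt1) and −0.83 (Pold1) on the log2 scale. That library also had the highest mitochondrial share of counts. The part of GC content, RNA quality or depth in these values was not tested. None of the 4 passed against vehicle in edgeR over all libraries with the low-count filter and TMM scaling. Without that filter all 4 passed as higher at 8 h in both single treatments. In the libraries labelled LPA the adjusted p was then 8.08e-08 for Cdt1, 1.81e-05 for Pold1, 0.030 for E2f1 and 0.036 for E2f2. The log2 fold changes hardly moved, at 0.62 for Cdt1 and 0.53 for Pold1 with and without the filter. What changed was the SE, from 0.214 to 0.103 for Cdt1 and from 0.23 to 0.105 for Pold1. For both genes the libraries labelled LPA overlapped vehicle. In the libraries labelled 1,25D at 8 h E2f2 was at 4.65, 4.05 and 4.81 CPM, above every vehicle library, with a log2 fold change of 0.72 ± 0.28 (adjusted p = 0.087), which was 0.39 without vehicle replicate 2 (adjusted p = 0.37), 0.58 with GC and length offsets (adjusted p = 0.048) and 0.73 with DESeq2 (adjusted p = 0.043). Cdt1 in the libraries labelled LPA was 0.62 ± 0.21 above vehicle (adjusted p = 0.060), and 0.33 without vehicle replicate 2 (adjusted p = 0.37). It passed with GC and length offsets (0.44, adjusted p = 0.023) and with DESeq2 (0.61, adjusted p = 0.025). In the same libraries Pold1 went from 0.53 to 0.22 with the offsets (adjusted p = 0.15). E2f1 went from 0.325 to 0.119 there (adjusted p = 0.51). In those labelled 1,25D at 8 h Pold1 went from 0.47 to 0.22 and E2f1 from 0.38 to 0.22, and neither passed with the offsets. The E2f2 interaction at 8 h was lost without vehicle replicate 2, at −0.98 (adjusted p = 0.13).

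**Figure D5:**
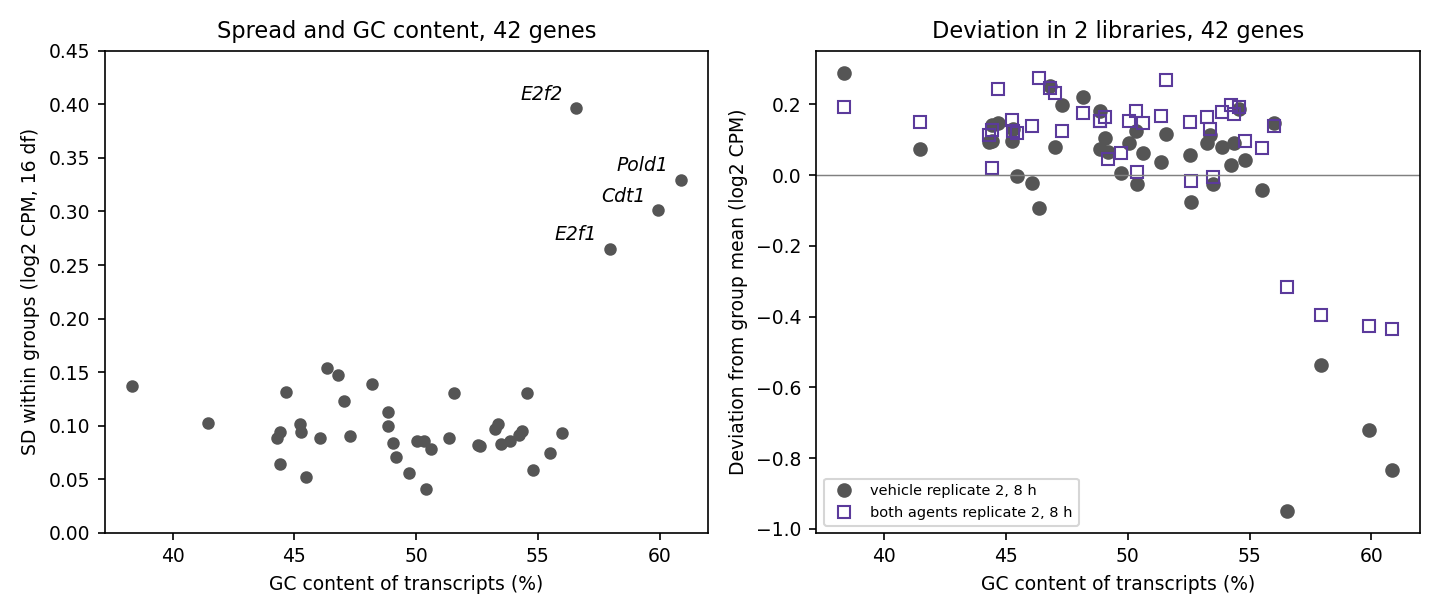
Left, within-group SD of log2 CPM (16 residual degrees of freedom) against transcript GC content for the 42 genes. Right, deviation of each gene from its group mean in vehicle replicate 2 and both-agents replicate 2 at 8 h; the 4 genes of highest GC content lie lowest in both libraries.

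Genes outside the 42 were read from further lists. Of 40 other replication factors, all tested, 5 were lower (8.32% of all genes) and 0 higher (7.89%) at 8 h in the libraries labelled 1,25D, with a median of −0.10. Rfc2, another clamp loader subunit, was 119 ± 5.48 CPM (SD, n = 3) against 152 ± 9.01 CPM (−0.36 ± 0.08, adjusted p = 0.0026). Timeless, a fork protection gene, was lower at both 2 h with both agents (−0.55 ± 0.08, adjusted p = 2.99e-05) and 8 h in the libraries labelled 1,25D (−0.31 ± 0.08, adjusted p = 0.010). In vehicle at 8 h against 2 h, 6 of the 40 were higher (5.88% of all genes) and 3 lower (8.69%), and Pold4, a small polymerase delta subunit, rose most clearly (0.74 ± 0.11, adjusted p = 6.67e-05).

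Of 31 other G1/S regulators, 29 were tested. In the libraries labelled 1,25D at 2 h 2 were higher (7.06% of all genes) and 4 lower (6.85%). Myc, a transcription factor that promotes entry into S phase, was at 148 ± 2.88 CPM against 62.1 ± 5.43 CPM in vehicle (1.25 ± 0.17, adjusted p = 2.07e-05), and with both agents at 141 ± 10.7 CPM (1.19 ± 0.17, adjusted p = 2.62e-05). Cdkn2b, the gene of the CDK4/6 inhibitor p15, rose at 8 h in the libraries labelled LPA (0.76 ± 0.07, adjusted p = 7.99e-08) and with both agents (0.52 ± 0.07, adjusted p = 1.07e-05). Rbl2, a retinoblastoma family gene, was lower in the 2 h libraries labelled 1,25D (−0.33 ± 0.08, adjusted p = 0.0061) and likewise in those of 8 h (−0.38 ± 0.08, adjusted p = 0.0022).

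Cdkn1a is also a classical target of p53. Of 20 other p53 target genes, 9 were higher (7.06% of all genes) and 2 lower (6.85%) at 2 h in the libraries labelled 1,25D, with a median log2 fold change of 0.26. With both agents 9 were higher and 2 lower (19.9% of all genes, either way), with a median of 0.31. Of all 16424 tested genes, 1623 were higher and 1644 lower in that comparison. Plk2 rose (1.22 ± 0.07, adjusted p = 1.33e-11), while Sesn1 (−0.76 ± 0.08, adjusted p = 1.07e-06) and Trp53inp1 (−0.93 ± 0.13, adjusted p = 3.79e-05) fell in the libraries labelled 1,25D. At 8 h 5 were higher (7.89%) and 3 lower (8.32%) in those libraries.

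Of 26 mitosis genes, 11 were lower (6.85% of all genes) and 0 higher (7.06%) at 2 h in the libraries labelled 1,25D, with a median of −0.21. With both agents 8 were lower and 0 higher (19.9% of all genes, either way), where 1644 of all 16424 tested genes were lower and 1623 higher. The summed level of the 9 osteocyte markers was 194 to 200.3 TPM in vehicle at 2 h, 278 to 315 TPM in the libraries labelled 1,25D and 304 to 339.5 TPM with both agents, and its part in the counts at 2 h was not tested. Most of that sum again came from Pdpn, Cd44 and Gja1. Plk1, the mitotic kinase, was at 83.7 ± 5.81 CPM against 133 ± 5.09 CPM (−0.66 ± 0.07, adjusted p = 3.99e-07). In vehicle at 8 h against 2 h, 12 were higher (5.88%) and 0 lower (8.69%), with a median of 0.25 and Nusap1 at 174 ± 13.9 CPM against 115 ± 12.6 CPM (0.60 ± 0.09, adjusted p = 7.28e-05). The replication genes had medians of −0.03 and 0.01 in these same comparisons.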

How the data were processed

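Per the labels' protocols, an RNeasy kit gave the RNA, from which DNBSEQ Fast RNA libraries were prepared. The authors deposited 1 table per library with an estimated count and a TPM value (scaled for effective length and library size) for each Ensembl transcript, per the file headers. The submitters' processing notes name build mm39, and which quantifier was used is not given in the labels or headers. Groups were taken from the sample labels, with 3 libraries in each.

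The 139145 transcripts were matched to GENCODE M21 names for 135078 of them, which held 99.45 to 99.60% of the counts, and summed to genes. Summed estimated counts were rounded to whole numbers. Genes were filtered with filterByExpr (minimum count 10), scaled by TMM and tested over all 24 libraries in 1 fit with edgeR 4.0.16 (quasi-likelihood, robust) in R 4.3.3, with Benjamini-Hochberg adjustment over 16424 genes and a threshold of 0.05. Error terms are SE of the log2 fold change unless SD is named. CPM values use TMM-scaled library sizes. Counting overlapping or antisense genes with or without strand is not stated.

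The 42 genes, the further lists and the comparisons were chosen with earlier results of these data known. All 42 could be named, with values per library for up to 4 genes each way with the smallest p in each comparison with vehicle and, whatever their result, for 14 set genes. Others past the test are also named. The alternatives were median-of-ratios size factors, no low-count filter, DESeq2 1.42.0, the compared groups alone, a replicate block, limma 3.58.1 on the authors' TPM values as log2(TPM + 1), leaving out each library, and, chosen after seeing the data, offsets for GC content and length. The fitting code was tested on simulated data, for both agents against vehicle at 8 h. It recovered 10.4% of genes changed 1.25-fold, 51.0% of those changed 1.5-fold, 54.2% at 2-fold and 78% at 4-fold, with 3 false calls. The changed genes were drawn from all tested genes, whose median spread was larger than that of the 42. A gene that did not pass is thus not shown to be unchanged. Promoter sequences and names come from GRCm38 tables, and coordinates on that build are not mixed with mm39.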

Additional observations from a re-analysis of the deposited data

Results flagged for a closer look

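Treatment effects that differed between 2 h and 8 h were picked out by a test of the difference itself (edgeR, adjusted over all tested genes, 3 libraries per group). In the libraries labelled LPA the effect on Cdc6 was −0.42 lower on the log2 scale at 8 h than at 2 h, and that on Gins2 was −0.42 lower. In those labelled 1,25D the effect on Ccnd1 was 0.56 higher at 8 h. With both agents the effect on Mcm4 differed by −0.33, that on Rrm2 by −0.40 and that on Pola2 by 0.28. The difference for Ccnd1 held in all 19 alternatives and that for Pola2 in 6 of 19.

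At 8 h the effect of both agents differed from the sum of the single effects for Fen1 by 0.46, for Gins2 by 0.35, for Ccnd1 by −0.54 and for E2f2 by −1.33 on the log2 scale. The interaction of E2f2 was called in 6 of 19 alternatives, and E2f2 is the gene of lowest expression among the 42.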

How the results depend on the processing

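Of 78 calls of these genes over the 16 comparisons, 20 held in all alternatives run and 39 in all fits that left out a library, and none of the 78 changed sign in the alternatives run. Splits did turn, as the report gives: with limma on log2(TPM + 1) the signs of the 42 genes for labelled LPA at 8 h went from 8 above and 34 below 0 to 25 and 17, and for both agents against labelled LPA at 8 h from 24 and 18 to 10 and 32. Calls were also gained: 35 with DESeq2, 32 with GC and length offsets, 26 on the log2(TPM + 1) scale and 24 without the low-count filter. The cause of each move below was not tested. Counts over all tested genes moved with the setting as well, and their shares are not given beside each count. Counts of genes past the test (main counts in the report) were as follows. Without the low-count filter they were 0 for labelled LPA at 2 h, 2 for labelled 1,25D at 2 h, 3 for both agents against labelled LPA at 2 h, 6 for labelled LPA at 8 h, 3 for both agents at 8 h, 5 for vehicle over time, and 8, 2 and 0 for the time differences of labelled LPA, labelled 1,25D and both agents. With GC and length offsets they were 0 for labelled LPA at 2 h, 7 at 8 h, 8 for both agents at 8 h, 5 for both agents against labelled 1,25D at 8 h, 13 for vehicle over time, and 4 and 2 for the time differences of labelled LPA and labelled 1,25D. With the compared groups fitted alone they were 0 for labelled LPA at 2 h and at 8 h, 1 for both agents at 8 h, 1 and 3 for both agents against labelled LPA and labelled 1,25D at 8 h, 0 for the interaction at 8 h, 3 for vehicle over time and 0 for the time difference of both agents. With limma on log2(TPM + 1) they were 0 for labelled LPA at 2 h, 7 and 6 for labelled 1,25D at 2 h and 8 h, 11 and 3 for both agents against labelled LPA and labelled 1,25D at 8 h, and 1 each for the interaction at 8 h and the time differences of labelled LPA and both agents. The median of all genes was shifted on that scale by −0.11 (both agents against labelled LPA, 8 h), −0.11 (interaction, 8 h) and 0.13 (time difference of labelled LPA). With DESeq2 they were 7 for labelled LPA at 8 h, 16 for the interaction at 8 h, and 7 and 2 for the time differences of labelled LPA and labelled 1,25D.

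Leaving out each library gave, at 2 h, 0 to 1 genes for labelled LPA, 2 to 4 for labelled 1,25D, 6 to 10 for both agents, 6 to 11 for both agents against labelled LPA, and 0 in each fit against labelled 1,25D and for the interaction. At 8 h it gave 2 to 8, 8 to 17, 4 to 6, 3 to 12, 3 to 11 and 0 to 24 in the same order. Vehicle over time gave 5 to 9, and the time differences gave 0 to 11 for labelled LPA, 1 to 2 for labelled 1,25D and 1 to 4 for both agents. Replicate numbers were not treated as pairs: same-numbered deviations correlated at 0.06, 0.298 and 0.219 for both agents and vehicle at 8 h, where every sample correlated best with its own number, and as low as −0.212 in another comparison. With the replicate block the interaction at 8 h had 2 genes, and the other counts stayed within 1.5 times.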
